A study of Rattus norvegicus with 6 samples.

Results

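The genes described here are 10 heat shock genes of the rat heart: the cytosolic HSP70 gene Hspa8, the HSP110 genes Hspa4 and Hsph1, the cytosolic HSP90 genes Hsp90aa1 and Hsp90ab1, the mitochondrial chaperone genes Hspa9, Hspd1 and Hspe1, the co-chaperone gene Bag3, and Hsf1, which encodes a heat shock transcription factor. They were found by symbol among the 28293 genes of the expression table, and all 10 passed the filter on low values, as did 10942 genes in all. RNA sequencing was performed on myocardial tissue of male WT rats, with 3 samples labelled sham and 3 labelled I/R, called MI/RI below. In MI/RI, the left anterior descending artery was tied off for 30 min and reopened for 6 h. The labels write the same times for sham, and they give no strain, age or region of the heart. The unit is FPKM, fragments per kilobase of a gene's length and per unit of library size, so levels can be compared between genes.

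HSP70 proteins hold unfolded stretches of other proteins in a cycle driven by ATP. HSP110 proteins release the spent nucleotide from HSP70, and Bag3 does the same while linking HSP70 to small heat shock proteins and to autophagy, which in heart muscle serves the upkeep of the Z-disc. HSP90 proteins mature kinases and steroid receptors. In the mitochondrion, Hspa9 (mortalin) pulls proteins in through the membrane, and Hspd1 (HSP60) with its lid Hspe1 (HSP10) folds them. Hsf1 is held inactive by chaperones in unstressed cells and, once released, binds heat shock elements, which are inverted repeats of the unit GAA, in the promoters of many chaperone genes. Its activity is set largely after translation, so that its mRNA level is not a measure of its activity.

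The promoters are shown because many of these genes are known targets of Hsf1. RefSeq windows of the rat build GRCr8, from 250 bases before to 50 bases after the start site, were at hand for 8 of the 10 genes. They were searched for a pair of facing units, GAANNTTC or TTCNNGAA, each of which reads the same on both strands, and for a run of 3 or more units, GAANNTTCNNGAA or TTCNNGAANNTTC, each of which is the other read on the opposite strand and contains both pairs. A pair was found in 6 of the 8 windows and in 15.9% of all 33469 rat promoter windows of the table. A run of 3 or more units was found in 4 of the 8, those of Hspa8, Hsph1, Hspd1 and Hspe1, and in 0.798% of all windows. In the stretches below, the matching units are in capitals, and the strand is that of the gene.

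Hspa8, chr8:50080281-50080333, plus strand: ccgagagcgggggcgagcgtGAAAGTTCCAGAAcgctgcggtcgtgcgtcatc
Hspa8, chr8:50080439-50080491, plus strand: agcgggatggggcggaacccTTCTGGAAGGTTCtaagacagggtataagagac
Hsph1, chr12:10427312-10427364, plus strand: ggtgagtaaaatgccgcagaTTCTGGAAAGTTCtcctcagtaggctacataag
Hspd1, chr9:64084242-64084287, minus strand: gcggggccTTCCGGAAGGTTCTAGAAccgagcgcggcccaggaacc
Hspe1, chr9:64084242-64084299, plus strand: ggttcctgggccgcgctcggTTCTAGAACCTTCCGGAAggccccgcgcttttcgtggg
Bag3, chr1:192533308-192533355, plus strand: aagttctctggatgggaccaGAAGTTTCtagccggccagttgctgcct
Hspa9, chr18:26828455-26828502, minus strand: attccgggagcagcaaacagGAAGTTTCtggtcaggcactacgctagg

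Hspa8 held 2 runs of 3 units, at −213 to −201 and at −55 to −43 from its start site, counted in bases. Hspd1 and Hspe1 lie head to head on chromosome 9, with start sites 290 bases apart, so their windows overlap by 211 bases. The run of 4 units counted in both is 1 stretch of 18 bases read from either strand, at −65 to −48 from the start of Hspe1 and at −242 to −225 from that of Hspd1. Bag3 and Hspa9 held pairs but no longer run, and the windows of Hspa4 and Hsp90ab1 held neither. Not shown above are a further pair of Hspa9, at 18 to 25 after its start site, and a pair of Hsph1, at −105 to −98. These are matches of letters and not measured binding sites.

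Of the 10 genes, 8 were higher in MI/RI at an adjusted p under 0.05 (limma on log2(FPKM + 0.1), Benjamini-Hochberg adjustment over all genes tested), and none was lower, also at an unadjusted p under 0.05 and with limma-voom on recovered fragment counts. The same 8 were higher in every MI/RI sample than in every sham sample. These counts stand against a broad rise, since 25.5% of all genes tested were higher by the same test (7.36% were lower), 37.2% did not overlap between the groups in that direction, and 50% of the genes with a mean of at least 5 FPKM were called higher. The median log2 fold change was 1.21 over the 10 genes, 0.29 over all genes tested and 0.66 over those with a mean of at least 5 FPKM. Within the 10 genes it ran from 0.23 for Hsf1 to 2.32 for Bag3. A log2 fold change is on the log2(FPKM + 0.1) scale throughout, with the standard error (SE) of limma and n = 3 samples per group. The exact permutation test of a single value cannot give a p under 0.1 with 3 samples against 3.

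**Figure D1:**
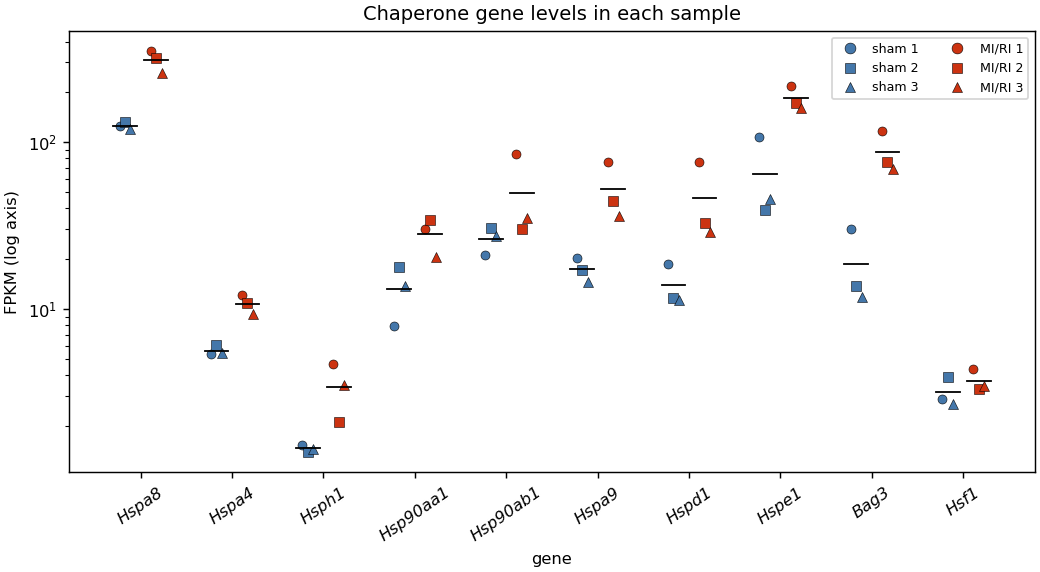
FPKM of the 10 genes (log axis) in each of the 6 samples, with sham and MI/RI in separate colours, the replicate number as the symbol and short lines at the group means. The MI/RI samples lie above all sham samples for every gene other than Hsp90ab1 and Hsf1, and MI/RI replicate 1 is the highest sample for 9 of the 10.

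The library background moved with the groups. Mitochondrially encoded mRNAs took 80.1% to 86.2% of the summed FPKM in sham and 61.8% to 71.5% in MI/RI. Of the cardiomyocyte markers, 6 of 7 tested were higher in MI/RI (85.7%, beside 25.5% of all genes tested). Their summed FPKM was 3300 to 10684 in sham, highest in sham replicate 1, and 21373 to 30792 in MI/RI. The labelled tissue thus held its defining markers in each sample. Leaving out Csf3r, which passed the filter only through its MI/RI values, all 3 neutrophil and monocyte markers tested were higher. Sums over the whole list were 14.8 to 18.8 FPKM in sham and 32.9 to 86.5 FPKM in MI/RI. Cxcr2, Itgam and Mpo did not pass the filter, and Mpo was at 0 in all samples. Of the fibroblast markers, 2 of 7 were higher (28.6%), near the 25.5% of all genes tested. This was below the 50% of genes with a mean of at least 5 FPKM. The 7 fibroblast markers summed to 420.1 to 580.9 FPKM in sham and 605 to 669 FPKM in MI/RI. No endothelial marker of 7 and no red blood cell marker of 4 was called by limma (1 higher and 1 lower, and 1 lower, at an unadjusted p under 0.05, and 1 endothelial marker higher by limma-voom), with sums of 188 to 242 against 185 to 218 FPKM and of 1132 to 1263 against 606 to 1753 FPKM. The part of these shifts in the chaperone results was not tested, and in bulk tissue fewer cells of a type and less RNA per cell cannot be told apart. The level of each chaperone gene rested on 328 to 32195 fragments in a sample, which gives counting errors of 5.52% at the lowest and 0.557% at the highest.

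Bag3 (ENSRNOG00000020298) rose the most of the 10. In the order of the replicate numbers, which holds for every gene below, its level was 30.0, 13.6 and 11.9 FPKM in sham and 116, 76.3 and 68.5 FPKM in MI/RI. The lowest MI/RI sample was 2.29-fold above the highest sham sample, and sham replicate 1 stood above the other sham samples. The mean was 18.5 ± 9.98 FPKM (SD, n = 3) in sham and 87.0 ± 25.5 FPKM (SD, n = 3) in MI/RI, a 4.70-fold difference of means. The log2 fold change was 2.32 (SE 0.37, adjusted p = 0.0035, limma), and 201 of the genes tested (1.84%) rose more.

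The 3 mitochondrial chaperone genes were each called higher in MI/RI. Hspa9 (ENSRNOG00000019525), the mitochondrial HSP70, was at 20.1, 17.0 and 14.6 FPKM in sham and 76.3, 44.1 and 36.0 FPKM in MI/RI (log2 fold change 1.53, SE 0.30, adjusted p = 0.0066, limma). Hspd1 (ENSRNOG00000014525), which forms the folding chamber, was at 18.6, 11.7 and 11.3 FPKM in sham and 76.1, 32.5 and 29.1 FPKM in MI/RI (log2 fold change 1.62, SE 0.38, adjusted p = 0.011, limma). Hspe1 (ENSRNOG00000051624), which forms the lid of that chamber, was at 107, 39.1 and 45.7 FPKM in sham and 217, 172 and 160 FPKM in MI/RI (log2 fold change 1.65, SE 0.37, adjusted p = 0.0097, limma). In all 3 genes the sample with replicate number 1 was the highest of its group, and no MI/RI sample overlapped a sham sample. The means were 3.03-fold, 3.31-fold and 2.86-fold higher in MI/RI for Hspa9, Hspd1 and Hspe1. Hspd1 and Hspe1 lost the call when sham replicate 2 was left out, with adjusted p = 0.055 and 0.0502 (limma).

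Hspa8 (ENSRNOG00000034066), which encodes the constitutive HSC70, was the most abundant of the 10 in both groups. It was at 125, 131 and 120 FPKM in sham and 350, 318 and 259 FPKM in MI/RI. The sham samples lay close together, and the lowest MI/RI sample was 1.98-fold above the highest of them. The mean was 125.4 ± 5.42 FPKM (SD, n = 3) in sham and 309 ± 46.0 FPKM (SD, n = 3) in MI/RI, with a log2 fold change of 1.29 (SE 0.23, adjusted p = 0.0048, limma).

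The HSP110 genes, whose proteins recharge HSP70, were both called higher. Hspa4 (ENSRNOG00000016596) was at 5.36, 6.11 and 5.42 FPKM in sham and 12.1, 10.9 and 9.36 FPKM in MI/RI (log2 fold change 0.92, SE 0.21, adjusted p = 0.011, limma). Hsph1 (ENSRNOG00000000902) was at 1.53, 1.39 and 1.45 FPKM in sham and 4.65, 2.10 and 3.51 FPKM in MI/RI (log2 fold change 1.11, SE 0.29, adjusted p = 0.018, limma). The groups did not overlap for either gene, but the MI/RI samples of Hsph1 were spread widely. Its call was lost without sham replicate 2 (adjusted p = 0.061), sham replicate 3 (0.056), MI/RI replicate 1 (0.052) or MI/RI replicate 3 (0.0501), all from limma, whereas Hspa4, Hspa8, Hspa9 and Bag3 kept theirs with any sample left out.

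Of the cytosolic HSP90 genes, 1 passed the test. Hsp90aa1 (ENSRNOG00000059714), the form known to be induced by stress, was at 7.92, 17.9 and 13.6 FPKM in sham and 29.9, 34.0 and 20.6 FPKM in MI/RI. The lowest MI/RI sample was only 1.15-fold above the highest sham sample, and the log2 fold change was 1.14 (SE 0.33, adjusted p = 0.025, limma). This call was lost without sham replicate 1 (adjusted p = 0.057), sham replicate 3 (0.057), MI/RI replicate 1 (0.066) or MI/RI replicate 2 (0.079), all from limma. Hsp90ab1 (ENSRNOG00000019834), the form known to be constitutive, was at 21.0, 30.7 and 27.3 FPKM in sham and 84.4, 30.0 and 34.9 FPKM in MI/RI. Its groups overlapped, and its mean of 49.8 ± 30.0 FPKM (SD, n = 3) in MI/RI rested on replicate 1. The log2 fold change of 0.77 (SE 0.37) did not pass the test (adjusted p = 0.137, limma), and without MI/RI replicate 1 it was 0.31. How any reads shared by these related genes, or by their pseudogenes and those of Hspa8, were counted is not given in the sources used here. How far such reads affect the split between them is therefore uncertain.

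Hsf1 (ENSRNOG00000021732) was at 2.90, 3.90 and 2.70 FPKM in sham and 4.34, 3.30 and 3.44 FPKM in MI/RI. The groups overlapped, and the means of 3.16 ± 0.642 and 3.70 ± 0.564 FPKM (SD, n = 3 each) differed by less than either SD. The log2 fold change was 0.23 (SE 0.23, adjusted p = 0.485, limma; exact permutation p = 0.3).

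**Figure D2:**
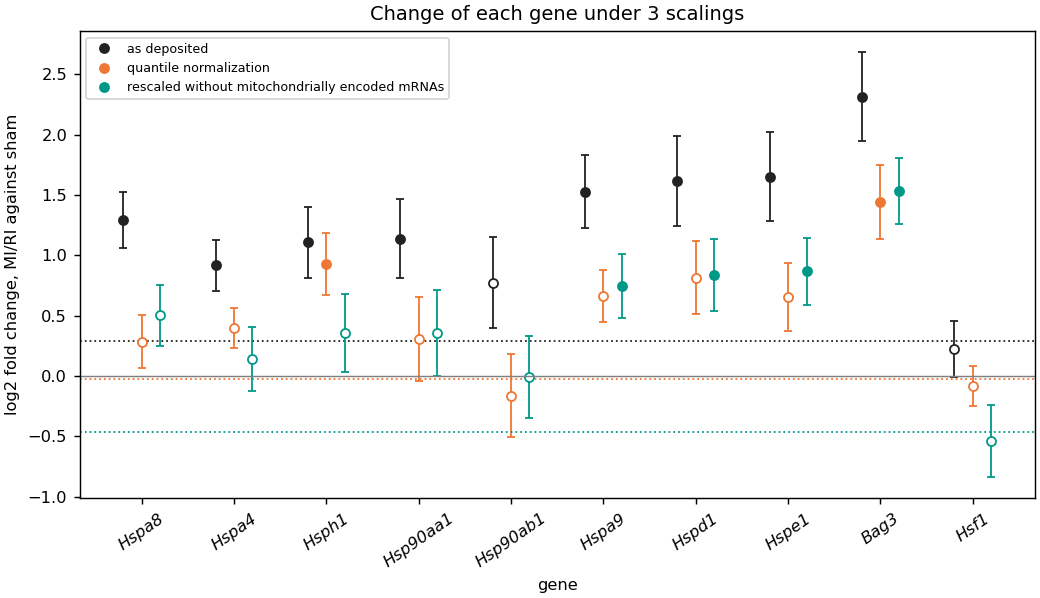
Log2 fold change of MI/RI against sham for the 10 genes as deposited, after quantile normalization and after rescaling over the genes not encoded by mitochondrial DNA, with bars of 1 standard error from limma, filled symbols for an adjusted p under 0.05, and dotted lines at the median of all genes under each scaling. Bag3 is the 1 gene past the threshold under all 3, while Hsp90ab1 and Hsf1 lie near or below 0 under the other scalings.

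The size of the rise depended on how the libraries were scaled. Over all genes, the median log2 fold change was 0.29 with the deposited values, −0.022 after quantile normalization and −0.46 after the libraries were rescaled to the sum of the genes not encoded by mitochondrial DNA. Bag3 kept its call under both, with log2 fold changes of 1.44 (adjusted p = 0.016, limma) and 1.53 (adjusted p = 0.0016, limma). After quantile normalization, 2 of the 10 genes were called higher, Bag3 and Hsph1, where 13.2% of all genes were. After the rescaling, 4 were called higher, Bag3, Hspa9, Hspd1 and Hspe1, where 7.25% of all genes were. Hspa8, Hspa4 and Hsp90aa1 stayed above 0 under both but did not pass the test (log2 fold changes of 0.29 and 0.51, of 0.40 and 0.14, and of 0.31 and 0.36). Relative to the median of all genes, the fold change was 2.02 for Bag3, 1.36 for Hspe1, 1.33 for Hspd1 and 1.24 for Hspa9 on the log2 scale with the deposited values. It was 1.46, 0.68, 0.84 and 0.68 for these genes after quantile normalization.

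In order of level, Hspa8 was followed by Hspe1 in both groups, and neither overlapped its neighbours. Hsp90ab1, Bag3, Hspa9, Hspd1 and Hsp90aa1 followed in sham, with overlapping ranges between neighbours in that order, and then Hspa4, Hsf1 and Hsph1, which did not overlap. In MI/RI, Bag3 and then Hspa9 stood ahead of Hsp90ab1, again with overlapping neighbours, and Hsf1 and Hsph1 overlapped as well. The 5 genes with their highest sham level in replicate 1 were Bag3, Hspa9, Hspd1, Hspe1 and Hsph1, and the other 5 had it in replicate 2.

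The log2 ratio of 2 genes within a sample is nearly unchanged when a library is scaled by 1 factor, and 6 pairs were compared. Quantile normalization is not such a factor and can change the ratio. The sham and MI/RI values overlapped for every pair, and the two-sided exact permutation tests gave p of 0.2 to 1 (adjusted p of at least 0.72 over the 6 pairs). With 3 samples per group these tests cannot pass 0.05, so they do not show that the ratios were alike. For Hspd1 to Hspe1, chamber to lid, the log2 ratio was −2.09 ± 0.40 in sham and −2.12 ± 0.53 in MI/RI (SD, n = 3 each), a difference of −0.033. For Hspd1 to Hspa9 the difference was 0.089, and for Hspa8 to Hspa9, cytosol to mitochondrion, it was −0.24. Bag3 to Hspa8 differed the most, with −2.05, −3.26 and −3.33 in sham and −1.59, −2.06 and −1.92 in MI/RI. The groups overlapped by a narrow margin through sham replicate 1 (difference 1.02, exact permutation p = 0.2), and the difference was larger than the SD of either group (0.72 and 0.24). Between samples of the same replicate number, Bag3 to Hspa8 was higher in MI/RI in all 3 pairs, by 0.46, 1.20 and 1.41. Hspd1 to Hspa9 was also higher in all 3, by 0.11, 0.10 and 0.054, and Hspa8 to Hspa9 was lower in all 3, with differences of −0.43, −0.092 and −0.19. The exact paired test gave p = 0.25 for these 3 ratios, the smallest that 3 pairs allow. For the other 3 ratios the differences did not share a sign. They were 1.01, −0.67 and −0.45 for Hspd1 to Hspe1 and −0.094, 0.95 and 0.23 for Hsp90aa1 to Hsp90ab1. Hsph1 to Hspa4 differed by 0.39, −0.25 and 0.44. The labels do not say that samples of the same number form a pair.

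**Figure D3:**
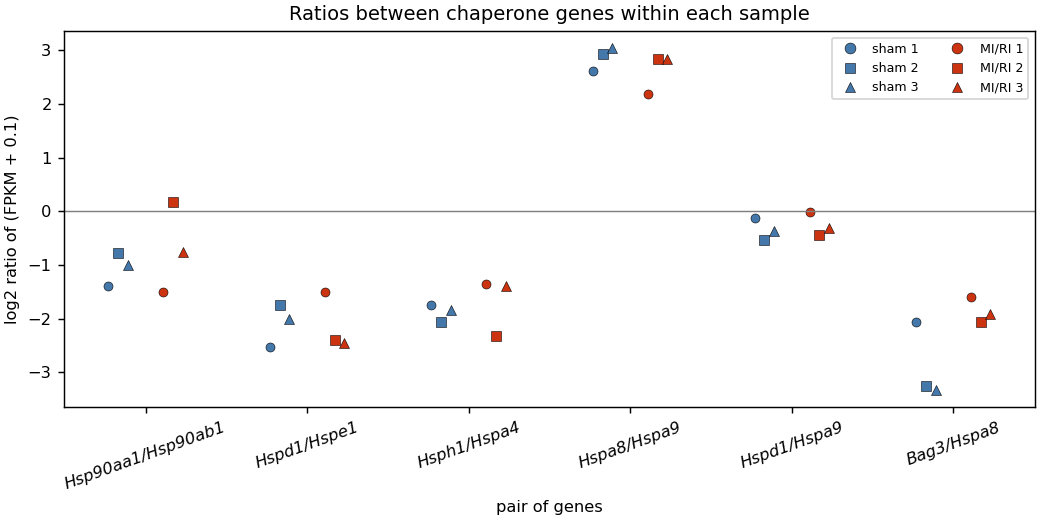
Log2 ratio of FPKM + 0.1 between 6 pairs of chaperone genes, 1 point for each of the 6 samples. Sham and MI/RI points overlap for every pair, with Bag3 to Hspa8 the farthest apart.

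The HSP90 pair varied most within MI/RI. Hsp90ab1 made up 72.6%, 63.2% and 66.7% of the summed FPKM of both genes in sham and 73.8%, 46.9% and 62.9% in MI/RI. Hsp90aa1 exceeded Hsp90ab1 in MI/RI replicate 2 alone. The share was 67.5% ± 4.78 in sham and 61.2% ± 13.5 in MI/RI (SD, n = 3 each; two-sided exact permutation test, p = 0.6). The log2 ratio of Hsph1 to Hspa4 differed by 0.19 (exact permutation p = 0.6).

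Against the mean log2 level of the 7 cardiomyocyte markers in the same sample, Bag3 was the 1 gene of the 10 with a difference above 0. Its log2 level lay −4.13, −4.24 and −3.96 from the markers in sham and −3.85, −3.83 and −3.92 in MI/RI. The groups did not overlap, but the margin was narrow (−3.96 in the highest sham sample and −3.92 in the lowest MI/RI sample). The difference of means was 0.24 (exact permutation p = 0.1, adjusted p = 0.333 over the 10 genes). The other 9 genes differed by −0.42 (Hspe1) to −1.85 (Hsf1), and Hspa4 and Hsf1 did not overlap between the groups, in the downward direction. All 10 adjusted p were 0.333 or 0.4 (exact permutation tests), and with 3 samples against 3 this test cannot reach 0.05. In a limma fit centred on these markers, 3 of the 10 genes were lower (Hspa4, Hsp90ab1 and Hsf1), where 76.6% of all genes were, and none was higher, where 0.375% of all genes were, both at an adjusted p under 0.05. None of the 10 was higher at an unadjusted p under 0.05 either, and Bag3 had an SE of 0.44 and adjusted p = 0.599 (limma). In sham replicate 1, where the markers were highest, Hspa8, Hspa4, Hsp90aa1, Hsp90ab1 and Hsf1 lay at least 1 log2 unit below the other sham samples on this scale, and Bag3 lay between them.

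**Figure D4:**
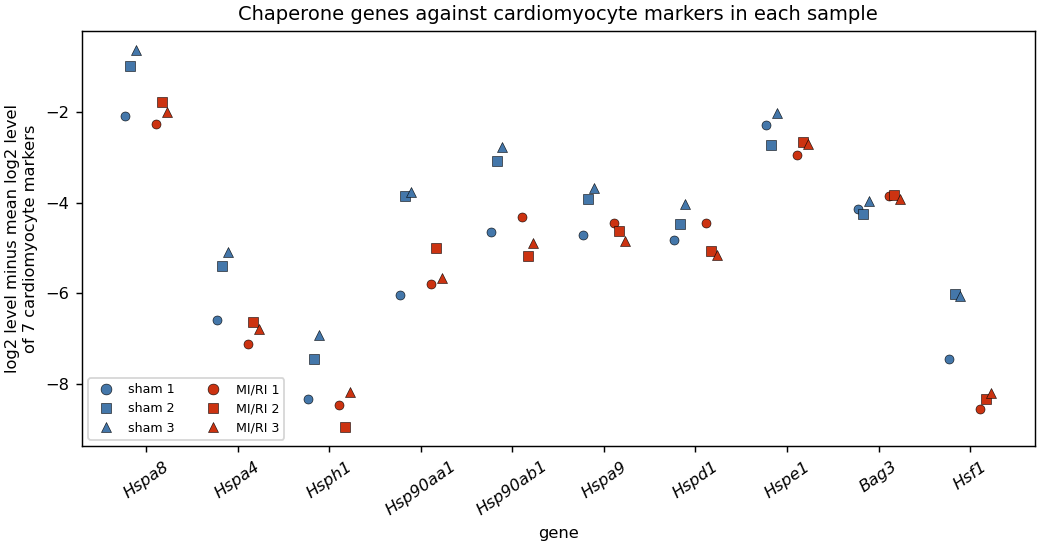
Log2 level of each of the 10 genes minus the mean log2 level of 7 cardiomyocyte markers in the same sample. Bag3 is the only gene with all MI/RI samples above all sham samples, by a narrow margin, and sham replicate 1 lies below the other sham samples for 8 of the other 9.

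Of 73 other chaperone and co-chaperone genes listed, 64 were tested. Leaving out Hspa1l, which passed the filter only through its MI/RI values, 34 of 63 (54%) were higher and 1 was lower in MI/RI, beside 25.5% higher and 7.36% lower among all genes tested and 50% higher among genes with a mean of at least 5 FPKM. Their median log2 fold change was 0.76, beside 0.29 over all genes tested and 0.66 over those with a mean of at least 5 FPKM. All 8 genes of the CCT chaperonin, the cytosolic ring that folds actin and tubulin, were higher (median 1.10), among them Cct3 (1.34), Tcp1 (1.27) and Cct7 (1.19), with adjusted p of 0.0052, 0.0045 and 0.0058 (limma). In the prefoldin list, whose products bring unfolded chains to CCT, 2 of 5 were higher. This share of 40% lay between the 25.5% of all genes and the 50% of those with a mean of at least 5 FPKM. The 2 genes were Pfdn2 (1.19) and Pfdn1 (0.70), with adjusted p of 0.0091 and 0.039 (limma). Both Cct3 and Cct7 lost the call after quantile normalization and, with Tcp1 and Pfdn2, after the rescaling, and Pfdn1 turned to −0.095 and −0.080 under these. Pfdn1 also lost the call when any sample other than sham replicate 1 was left out (adjusted p of 0.057 to 0.142, limma).

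In the list of BAG proteins, nucleotide exchange factors and adaptors, 9 of 11 (81.8%) were higher and 1 was lower. Of all genes tested, 25.5% were higher and 7.36% lower, and 50% were higher among those with a mean of at least 5 FPKM. Grpel1, the exchange factor of Hspa9, rose from 9.52, 6.45 and 6.08 FPKM in sham to 52.0, 24.1 and 22.2 FPKM in MI/RI (log2 fold change 2.06, adjusted p = 0.0040, limma), and Bag2, a cytosolic exchange factor, rose with a log2 fold change of 1.64 (adjusted p = 0.0027, limma). The gene that fell was Hspbap1, named for its binding to a small heat shock protein and not to HSP70. It was at 3.16, 3.19 and 2.98 FPKM in sham and 0.831, 0.953 and 0.891 FPKM in MI/RI (log2 fold change −1.69, SE 0.21, adjusted p = 0.0020, limma), with close replicates in both groups.

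Among 19 HSP90 co-chaperones and other HSP90 genes, 8 were higher (42.1%, between the 25.5% of all genes and the 50% of those with a mean of at least 5 FPKM) and none was lower (also at an unadjusted p under 0.05 and by limma-voom). Fkbp4, a co-chaperone of steroid receptor complexes, was at 13.5, 10.3 and 9.67 FPKM in sham and 60.8, 35.7 and 41.2 FPKM in MI/RI (log2 fold change 2.01, adjusted p = 0.0024, limma). Trap1, the mitochondrial HSP90, and Unc45b, which folds muscle myosin with HSP90, had log2 fold changes of 1.76 and 1.71 (adjusted p = 0.0048 and 0.0089, limma). Of the mitochondrial proteostasis list, 5 of 10 were higher, the same share as among genes with a mean of at least 5 FPKM (50%). The protease gene Clpp (2.04), the disaggregase gene Clpb (1.88) and the protease gene Lonp1 (1.44) had adjusted p of 0.0052, 0.0035 and 0.0066 (limma). Lonp1 lost the call after the rescaling (0.66, adjusted p = 0.062, limma).

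Of the other HSP70 and HSP110 genes, 2 of 7 were higher with Hspa1l left out, near the share of all genes (25.5%). Hspa5, the HSP70 of the endoplasmic reticulum, was at 25.4, 27.1 and 26.5 FPKM in sham and 88.0, 69.9 and 62.8 FPKM in MI/RI (log2 fold change 1.46, SE 0.23, adjusted p = 0.0034, limma), though its call was lost after quantile normalization (0.48, adjusted p = 0.091, limma). Hyou1, an HSP110 relative of the same compartment, had a log2 fold change of 1.06 (adjusted p = 0.010, limma) and lost the call after the rescaling (0.29, adjusted p = 0.42, limma). Hspa1l, a testis-rich HSP70 gene named after its values were seen, was at 0.162, 0.381 and 0.119 FPKM in sham and 2.36, 0.808 and 1.11 FPKM in MI/RI. It passed the filter only through its higher group, so its test is not given, and it is close in sequence to Hspa1a and Hspa1b. Of the heat shock factors and their binding partner, 3 of 6 were tested and none was called by limma or limma-voom (1 was higher at an unadjusted p under 0.05). Hspa1a, Hspa1b, St13 and Vbp1 were not analysed here.

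**Figure D5:**
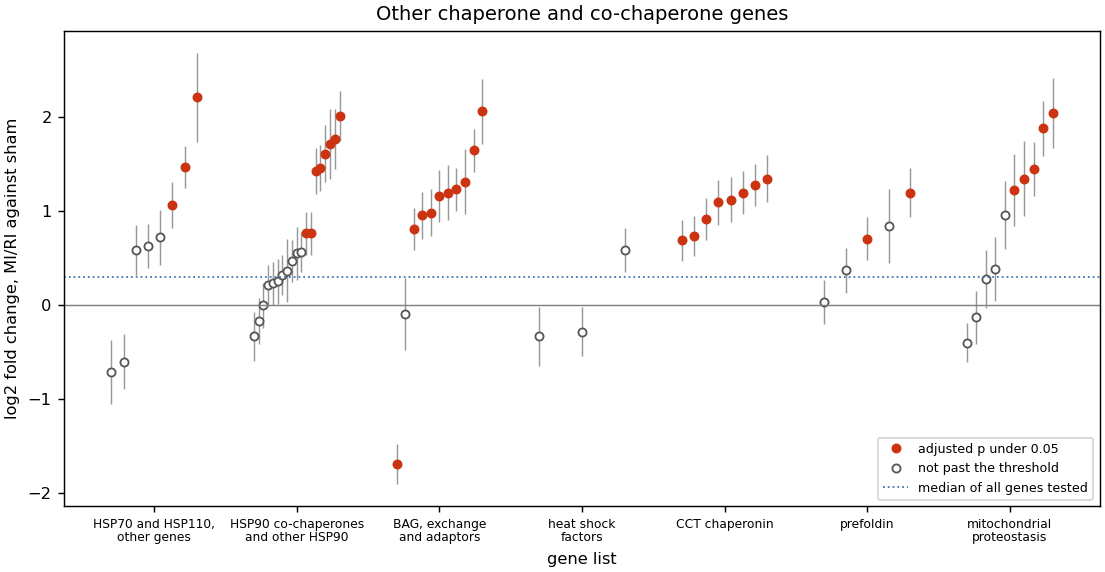
Log2 fold change of MI/RI against sham for each tested gene of 7 lists of other chaperone genes, with bars of 1 standard error, filled points for an adjusted p under 0.05 (limma) and a dotted line at the median of all genes tested, 0.29. The 8 CCT genes all lie above the line, and Hspbap1 is the only filled point below 0.

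The genes most alike to 3 of the chaperones over the 6 samples were named by the Euclidean distance between log2 profiles, each taken relative to its own sham mean, among 3575 genes with a mean of at least 5 FPKM. For Hspa8 these were Myl12a, Tcp1 and Arf1, at distances of 0.204, 0.213 and 0.218 log2 units. For Hspd1 they were Prdx6, Eno1 and Cpt2, at 0.222, 0.229 and 0.250. For Hsp90aa1 the nearest, Hnrnpf, Emp1 and F2r, lay farther off, at 0.496, 0.543 and 0.553.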

How the data were processed

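Total RNA of 3 sham and 3 I/R samples was sequenced from stranded libraries. The submitters' processing notes name STAR and HTSeq, and the authors deposited FPKM values in 1 table. The genome build, the annotation and the total behind the FPKM are not given in the sources used here. Columns were matched to samples by name, and rows that shared a symbol were summed. Genes with a mean of at least 0.5 FPKM were tested with limma 3.58.1 (trend) in R 4.3.3 on log2(FPKM + 0.1), with an adjusted p threshold of 0.05. The labels do not say that replicates were separate rats, so the p-values set differences against the spread between these samples, which may be technical.

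Depth relative to sham replicate 1 was 0.873 to 1.18. Because FPKM moved in whole steps, whole fragments (within 0.002) were recovered for 99.96% of 19481 rows with a value, as the smallest whole numbers that give the FPKM. This is a share of rows and not of fragments. The recovered fragments summed to 14305320 in sham replicate 1 and to 20720806 in MI/RI replicate 1, though the relative depth of the latter was 0.873. The recovered fragments gave the counting errors, which cover counting only, and the limma-voom alternative, which was chosen after seeing the data. Replicate numbers come from the sample titles. Taken as deviations from the group mean, the samples of numbers 1, 2 and 3 correlated by 0.203, 0.117 and 0.118 across genes. Samples of unlike numbers were not compared in this way, so these values do not show a pairing. The titles state none either. A fit with a replicate block was set beside the reported one as an alternative.

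The 10 genes and all gene lists were chosen with earlier results of these data known. Besides the 10 genes, the text names, of each chaperone list, the 3 genes with the largest absolute log2 fold change among those past the threshold with a mean of at least 1 FPKM, and, for Hspa8, Hsp90aa1 and Hspd1, the 3 nearest profiles. The limma fit was tested on simulated data. Promoter windows came from RefSeq (GRCr8), and no other coordinates were used. Alternatives were the pseudocount, the filter, the scaling, the trend, the replicate block, each sample left out, and the row kept for a symbol.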

Additional observations from a re-analysis of the deposited data

How the results depend on the processing

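In the fit with a replicate block, 8 of the 10 genes were again higher, as were 3085 genes in all, with 895 lower, and no other call on the 10 genes changed. Pseudocounts of 1 and 0.01, TPM rescaling, limma without trend, the highest row of each symbol and limma-voom also left 8 higher. Without a filter 6 were higher (Hsp90aa1 at adjusted p = 0.062 and Hsph1 at 0.054, limma), and without both replicates numbered 1, chosen after seeing the data, 6 were. With each sample left out in turn, 5 to 7 of the 10 were higher, as were 1528 to 2557 of all genes (309 to 881 lower) and 21 to 31 of the other chaperones (35 with all samples, Hspa1l included). The log2 ratios then ran from −0.34 to 0.14 (Hspd1/Hspe1), −0.033 to 0.20 (Hspd1/Hspa9), −0.070 to 0.76 (Hsp90aa1/Hsp90ab1), 0.024 to 0.50 (Hsph1/Hspa4), −0.36 to −0.022 (Hspa8/Hspa9) and 0.80 to 1.44 (Bag3/Hspa8). With a pseudocount of 1 the Hsph1/Hspa4 ratio turned to −0.018, and after quantile normalization the Hspd1/Hspe1 ratio turned to 0.16.

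Scaling moved the calls most. Of the calls over all genes, 77.6% were higher as reported, 87.3% with TPM (504 lower), 56.5% after centring on the median (1554 lower), 48.0% after quantile normalization (1441 higher, 1559 lower), 21.7% after the rescaling over genes not encoded by mitochondrial DNA (793 higher, 2857 lower) and 91.9% at a mean of at least 5 FPKM (166 lower). Other chaperones called lower numbered 0 at that filter (also unadjusted), 4 after centring on the median, 2 with limma-voom and 2 without both replicates numbered 1. They were 18 higher and 4 lower after quantile normalization, and 11 higher and 9 lower after the rescaling. Of the 10 genes, 2 and 4 were then higher, Hsp90ab1 was −0.16 and −0.0089, Hsf1 −0.085 and −0.54, and Pfdn1 −0.095 and −0.080. Centring on the median put Hsf1 at −0.024 and lost the calls of Hsp90aa1 (adjusted p = 0.051, limma) and Pfdn1 (0.45, adjusted p = 0.16, limma).

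Centring on the cardiomyocyte markers took the same amount from every gene. It left 41 genes higher and 8385 lower, 0 of the 10 higher and 3 lower (Hspa4, Hsp90ab1, Hsf1), and 0 of the other chaperones higher (also unadjusted) and 37 lower. The log2 fold changes became −0.78 (Hspa8), −1.15 (Hspa4), −0.54 (Hspa9), −0.93 (Hsp90aa1), −1.30 (Hsp90ab1), −0.96 (Hsph1), −0.45 (Hspd1), −0.42 (Hspe1), −1.85 (Hsf1), −0.61 (Hspa5), −1.01 (Hyou1), −0.31 (Trap1), −0.062 (Fkbp4), −0.36 (Unc45b), −0.43 (Bag2), −0.013 (Grpel1), −0.80 (Tcp1), −0.73 (Cct3), −0.88 (Cct7), −1.37 (Pfdn1), −0.88 (Pfdn2), −0.029 (Clpp), −0.20 (Clpb) and −0.63 (Lonp1). Apart from what these constructions fix, the cause of these moves was not tested.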
